A study of Drosophila melanogaster with 27 samples.

Results

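The genes described here encode the actin, tubulin and myosin II cytoskeleton that the epithelial cells of the wing imaginal disc build throughout larval growth. They are 10 listed genes out of the 13922 annotated as protein-coding on X, 4 and the arms of chromosomes 2 and 3: the cytoplasmic actins Act5C and Act42A, the tubulins alphaTub84B and betaTub56D, the actin regulators chic and tsr, the myosin II subunits sqh and zip, the GTPase gene Rho1 and the membrane linker gene Moe. They were chosen by name, with earlier results of these data known, and each was looked up by symbol in the RefSeq gene table of the dm6 assembly. The bodies of these genes and the 10 kb on each side were then overlapped with a list of peaks of H4K20me1, histone H4 monomethylated at lysine 20.

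The study used CUT&RUN, in which an antibody brings micrococcal nuclease to chromatin and the released DNA fragments are sequenced, to ask how mutations of the methyltransferase Set8 or of H4K20 alter the mark. The peak list used here sets Oregon-R discs with anti-H4K20me1 antibody (n = 3 libraries) against Oregon-R discs without primary antibody (n = 3 libraries). Oregon-R is a wild-type strain, and each library was made from 20 wing discs of wandering female larvae of instar 3 raised at 25 °C. The 21 libraries of the other 8 groups, with Set8 or histone mutations and their controls, were not analysed here.

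Actin filaments and non-muscle myosin II together form the contractile cortex of an epithelial cell, and tubulin forms its microtubules and mitotic spindle. Rho1 switches on the kinase Rok, which phosphorylates the myosin II light chain, while profilin and cofilin feed and disassemble actin filaments. H4K20me1 is made by Set8, rises as cells approach mitosis and, in mammalian cells, lies over the bodies of many transcribed genes.

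The list holds 6914 peaks over 17.5 Mb, with a median width of 1100 bp, and gives chromosome, start, end and width only. The labels of all 6 Oregon-R libraries name this list, which is given once and not per library, so no value per library, signal height, read depth or spread between replicates is known. All values below are therefore descriptions without a test, and weak methylation under the authors' threshold would leave a gene without a peak. Among 8 wing disc genes, 6 had a peak, against 38.3% of all protein-coding genes and 52.5% of those of like length. Their covered share, the percentage of the gene body inside peaks, was 69.8% in sd, 61.0% in ap, 45.6% in hth and 27.9% in nub but only 3.84% in Dll and 0.405% in rn, and vg and wg had no peak. Of genes marking other cells in a dissected disc, none of 4 hemocyte and none of 3 fat body genes had a peak, and the counts were 1 of 3 for neuron, 1 of 2 for tracheal and 2 of 4 for adult muscle progenitor genes. The genes counted were elav, covered to 26.1%, trh, to 0.957%, Mef2, to 3.53%, and twi, to 0.477%, and 46.9% to 55.3% of genes of like length had a peak. A peak does not measure expression, so these counts do not give the cell make-up of the discs.

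All 10 cytoskeletal genes had a peak over at least 1 bp of the gene body, whereas 38.3% of all protein-coding genes did. Because long genes meet a peak more often, the length of the genes matters here: protein-coding genes in the same length deciles as the 10 (each decile holds 10% of the genes, ranked by length) had a peak in 48.8% of cases on average. The covered share ranged from 25.4% in tsr to 84.0% in zip, with a median of 67.8%. Its median was 46.9% over the 5339 protein-coding genes with a peak and 0% over all protein-coding genes. In 8 of the 10 genes at least 50% of the body was covered, against 18.3% of all protein-coding genes, and none reached 90%. The 18.3% is not matched for length. In length decile 8, which holds Act5C, betaTub56D and Rho1, the upper quartile of the covered share was 59.1%. In decile 9, which holds chic, it was 56.3%.

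**Figure D1:**
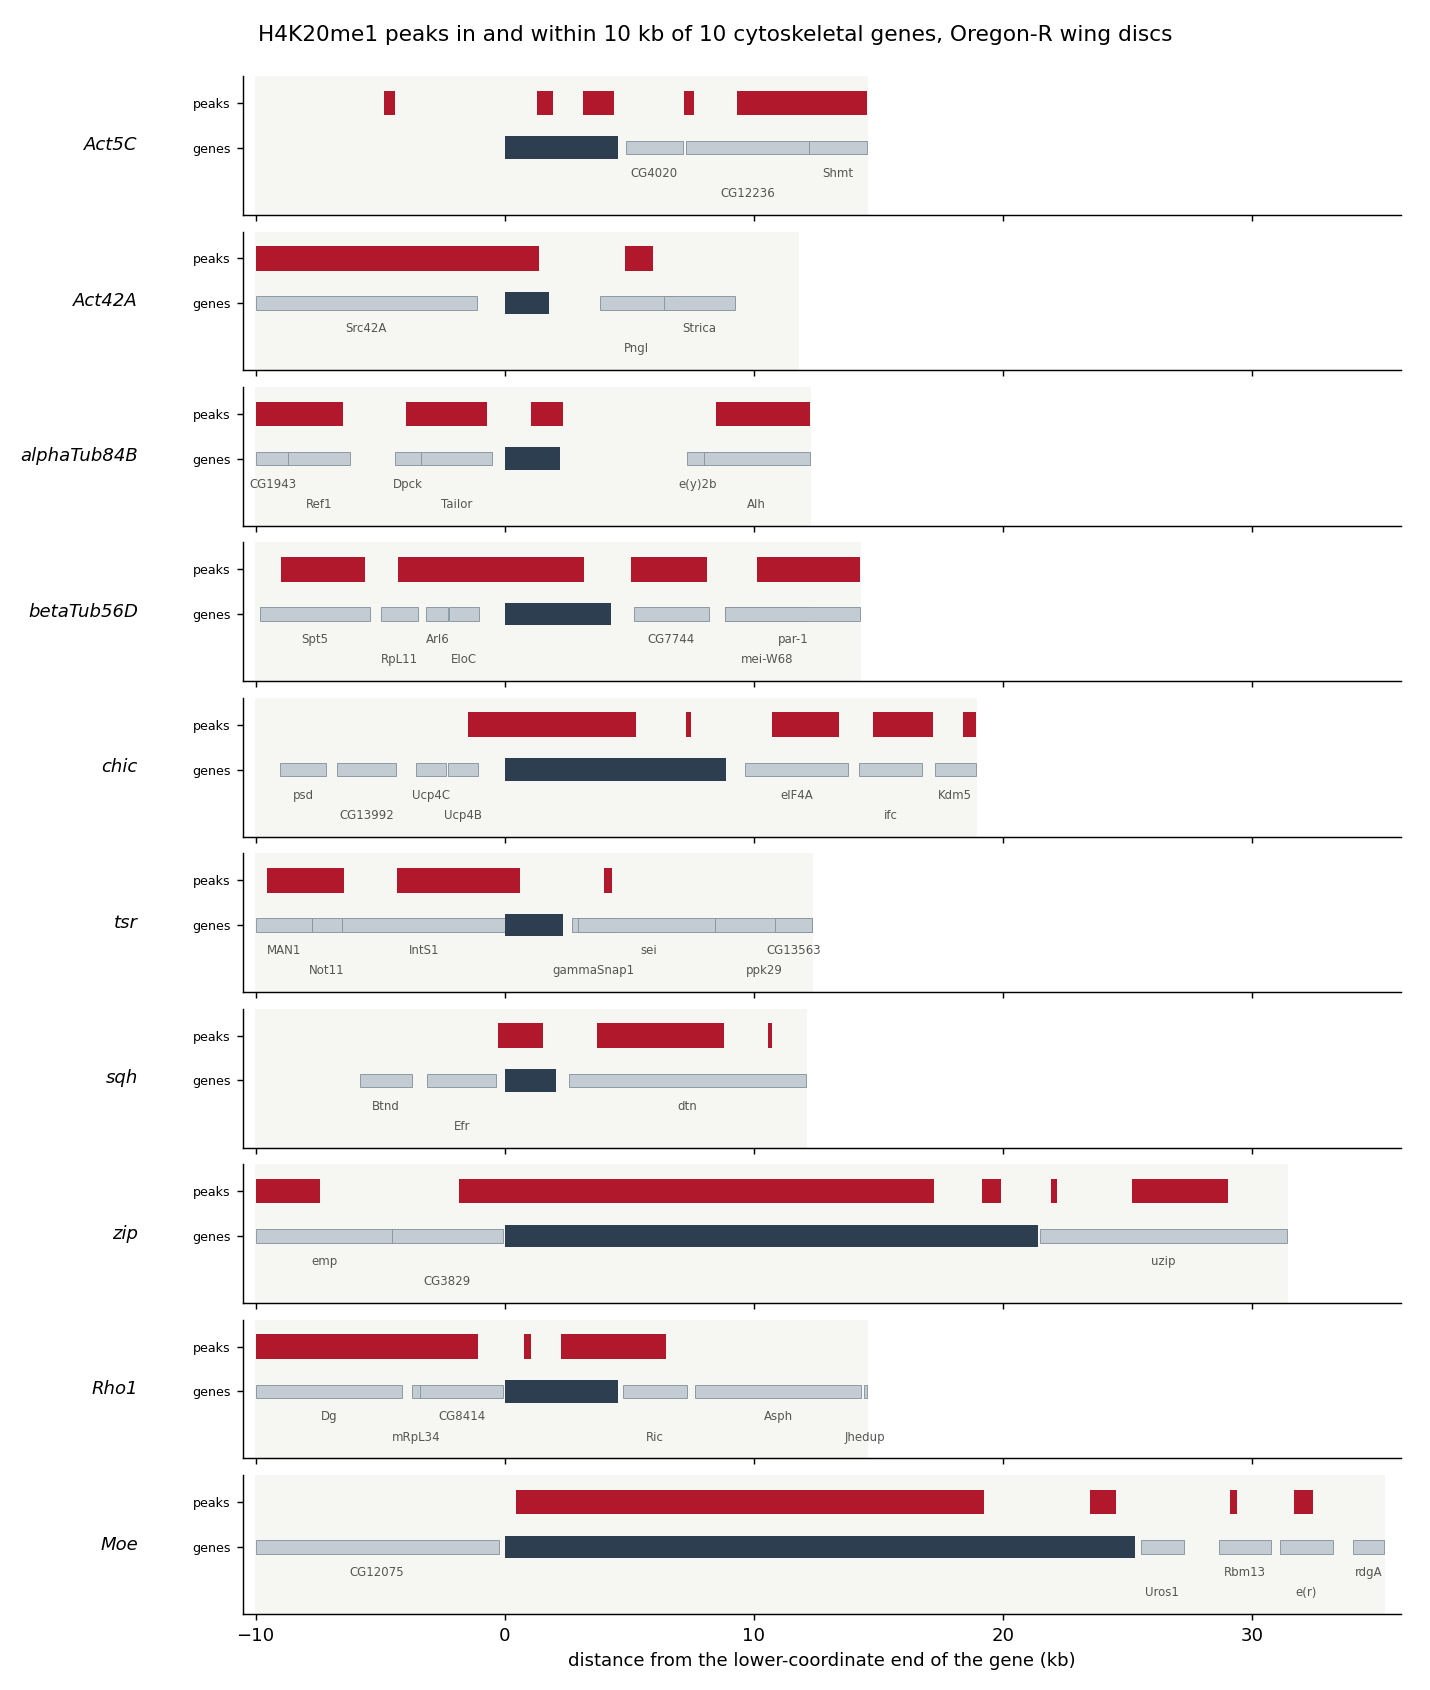
Map of each gene (dark bar) with the protein-coding genes around it (grey bars, cut at 10 kb) and the H4K20me1 peaks (red bars); the x axis is the distance in kb from the lower-coordinate end of the gene, to 1 scale for all 10. Peaks of zip and Moe run along most of the gene, whereas those of Act42A and tsr reach in from the neighbouring gene.

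Act5C (Dmel_CG4027, X:5900861-5905399, 4539 bp) and Act42A (Dmel_CG12051, 2R:6013910-6015689, 1780 bp) encode the cytoplasmic actins present in nearly all cells, and their peaks were unlike. Act5C held 2 short peaks of 650 and 1250 bp, separated by 1200 bp, that lay entirely inside the gene and covered 41.9% of it. The smallest gap between peaks in the whole list was 1050 bp, and whether closer peaks had been joined is not stated. Act42A was covered to 78.1% by a single peak of 20400 bp, the widest of the peaks that touch the 10 genes. Most of that peak, 87.7% of its length, lay in the neighbouring Src family kinase gene Src42A, and 6.82% lay in Act42A. The actin genes are near-identical in coding sequence, and how the authors placed reads that match several copies is not given in the sources used here, so the values of all actin genes are uncertain.

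The tubulin genes also differed from each other in width of peak. In alphaTub84B (Dmel_CG1913, 3R:7086599-7088839, 2241 bp), which encodes the main alpha-tubulin, 1 peak of 1300 bp covered 53.1% of the body, leaving 1052 bp at the lower-coordinate end free and passing the other end by 111 bp. In betaTub56D (Dmel_CG9277, 2R:19447319-19451600, 4282 bp), which encodes the main beta-tubulin, 1 peak of 7450 bp covered 74.3%. That peak also covered Arl6 and EloC completely and part of the ribosomal protein gene RpL11, and 42.7% of its length lay in betaTub56D. The surroundings of betaTub56D were the most densely marked of the 10, with 76.2% of the lower and 72.0% of the higher 10 kb flank inside peaks.

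Both genes of actin filament turnover were covered to less than the median of the 10. Profilin, the product of chic (Dmel_CG9553, 2L:5972115-5981018, 8904 bp), delivers actin monomers to growing filament ends. This gene was covered to 61.6% by a peak of 6750 bp, which began 1464 bp outside the gene and touched the mitochondrial carrier gene Ucp4B, and by a second peak of 200 bp. Cofilin, the product of tsr (Dmel_CG4254, 2R:24044453-24046805, 2353 bp), severs actin filaments. Only 598 bp of tsr, 25.4%, were covered, at the end that overlaps the Integrator subunit gene IntS1 by 6 bp. The peak was 4900 bp wide, with 87.9% of its length in IntS1 and 12.2% in tsr. No other of the 10 genes overlaps a protein-coding gene, as 41.4% of all protein-coding genes do.

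Both myosin II subunit genes were covered to more than the median of the 10. The heavy chain gene zip (Dmel_CG15792, 2R:24990570-25011965, 21396 bp) was covered to 84.0% by peaks of 19050 and 750 bp with a gap of 1950 bp. The first of these lay in zip over 90.5% of its length and reached into CG3829, which lies 80 bp away. The regulatory light chain gene sqh (Dmel_CG3595, X:6223061-6225140, 2080 bp) was covered to 74.0% by a single peak of 1800 bp. This peak overlapped no other protein-coding gene, with 85.6% of its length in sqh and the remaining 260 bp in front of the lower-coordinate end.

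Rho1 and Moe encode the GTPase that activates myosin II through Rok and the protein of the ezrin, radixin and moesin family that ties cortical actin to the plasma membrane. Rho1 (Dmel_CG8416, 2R:16102687-16107229, 4543 bp) was covered to 56.8% by peaks of 300 and 4200 bp, the second of which continued for 1921 bp past the gene, with 1711 bp of it in the Ras-like GTPase gene Ric. Moe (Dmel_CG10701, X:8873012-8898332, 25321 bp) was the longest of the 10 genes and was covered to 78.4%. Its peaks of 18800 and 1050 bp lay completely inside the gene, beginning 439 bp from the lower-coordinate end and ending 782 bp from the other. The flanks of Moe were almost free of peaks, with 0% of the lower and 10% of the higher 10 kb covered, and its nearest neighbours CG12075 and Uros1 had none.

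The order of covered share from low to high was thus tsr, Act5C, alphaTub84B, Rho1, chic, sqh, betaTub56D, Act42A, Moe and zip. With no replicate values, it cannot be said which neighbours in this order differ beyond the spread between libraries. Set against its own length decile, each of the 10 genes was more covered than most genes, from 66.3% of the genes in the decile for Act5C to 96.3% for zip. In 7 of the 10 the covered share was above the upper quartile of the decile, and Act5C, tsr and Rho1 were below it. By base pairs, peaks covered 55696 of the 77439 bp in the 10 genes (71.9%). zip and Moe made up 67.9% of the covered bp and 60.3% of all bp in the 10 genes, and without them the other 8 genes were covered to 58.2%.

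**Figure D2:**
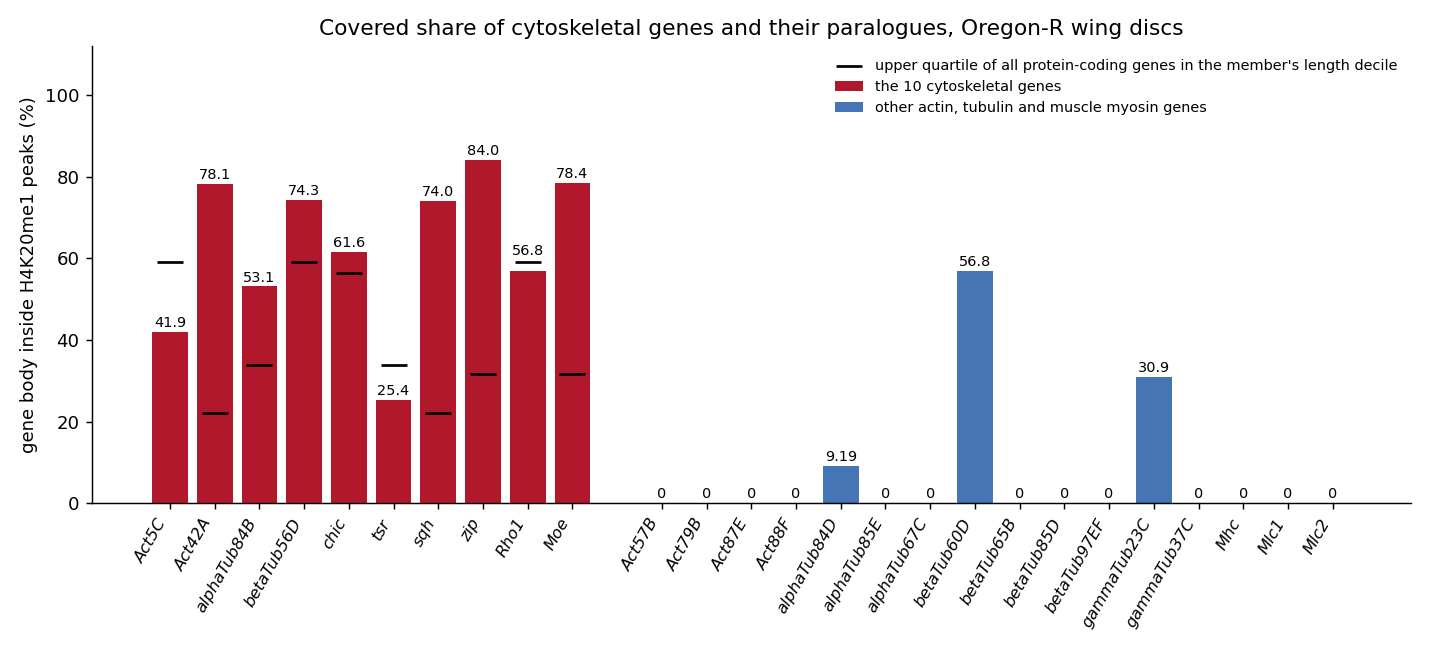
Percentage of each gene body inside H4K20me1 peaks for the 10 cytoskeletal genes (red) and for other actin, tubulin and muscle myosin genes (blue); black ticks mark the upper quartile of all protein-coding genes of the same length decile. The red bars run from 25.4% to 84.0%, and 13 of the 16 blue bars are at 0.

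The muscle actin and muscle myosin genes listed had no peak. None of the other 4 actin genes, Act57B, Act79B, Act87E and Act88F, which are expressed mainly in muscle, had one in the body. Around Act57B and Act79B the 10 kb flanks were empty too, whereas 19.5% of the higher flank was covered at Act87E and 10.5% at Act88F. Likewise the muscle myosin heavy chain gene Mhc, at 22201 bp close in length to zip, and the muscle light chain genes Mlc1 and Mlc2 had no peak. In genes of the same length deciles, 40.5% had a peak for the actins and 50.3% for the muscle myosin genes. Many genes of like length thus lack a peak too, and the counts of these short lists were not tested.

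Of 9 other tubulin genes, 3 (33.3%) had a peak, near the 38.3% of all protein-coding genes and the 40.3% of genes of the same length deciles. betaTub60D, known for expression in mesoderm and sense organs, was covered to 56.8%, as much as Rho1, and both of its 10 kb flanks were empty. The centrosomal gamma-tubulin gene gammaTub23C was covered to 30.9%, and alphaTub84D, a near-identical copy of alphaTub84B, to 9.19%. No peak lay in the maternal alphaTub67C, the testis-specific betaTub85D, the maternal gammaTub37C, alphaTub85E, betaTub65B or betaTub97EF, of which the last is 21377 bp long. As for the actins, reads shared by alphaTub84B and alphaTub84D cannot be told apart, and their values are uncertain.

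Along the gene, peaks mostly included 1 end and stopped short of the other. In 8 of the 10 genes exactly 1 end of the annotated body was inside a peak, in Act5C and Moe neither was, and in none were both. Among all 5339 protein-coding genes with a peak, 45.7% had 1 end inside a peak, 40.0% neither and 14.3% both. In the 8 genes with 1 end inside, the stretch left free at the opposite end measured 389 to 1755 bp. The table used here gives no strand, so these ends are not assigned to transcription starts or stops.

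**Figure D3:**
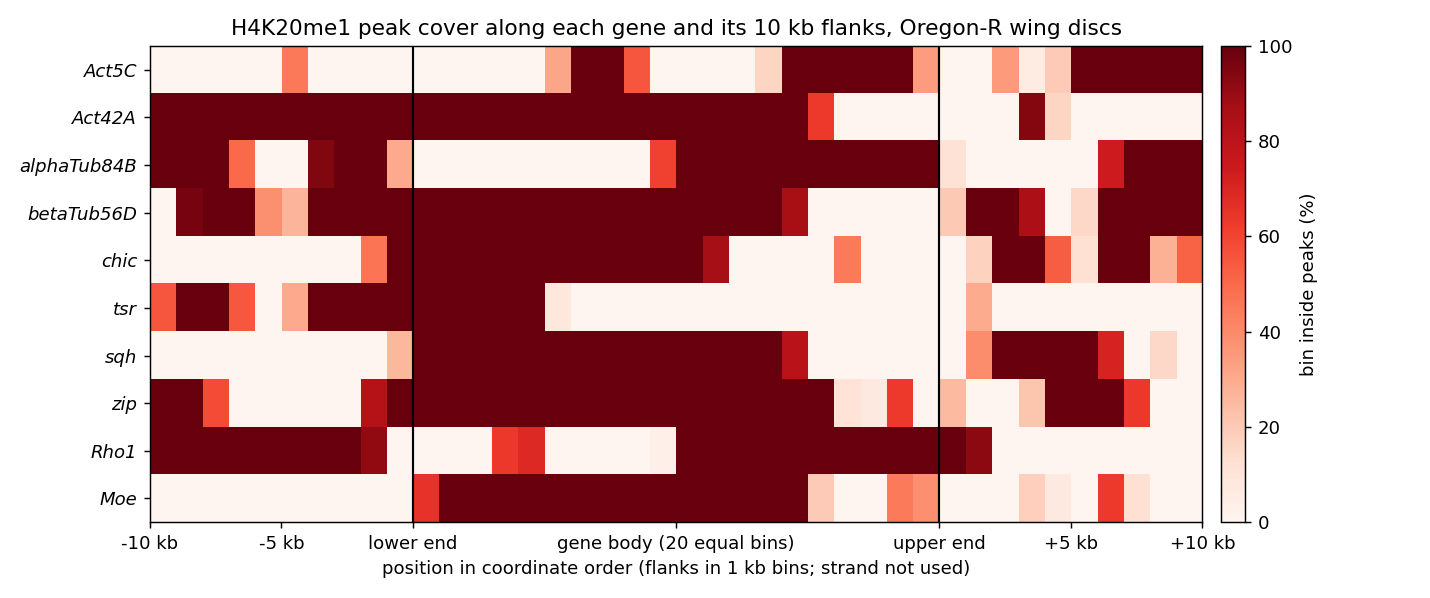
Heat map of peak cover (0 to 100% of each bin) along the 10 genes, in 20 equal bins of the body and 1 kb bins over 10 kb on each side, in coordinate order. Dark runs start at 1 end of the body and stop before the other in most rows, and the flanks differ from full cover beside Act42A to none on the lower side of Moe.

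On average the middle 50% of the bodies was covered to 71.3%, the lower 25% to 71.9% and the higher 25% to 36.5%, where lower and higher refer to coordinates. For protein-coding genes with a peak the same shares were 52.8% in the middle, 46.5% in the lower and 45.7% in the higher part. Individual genes departed from the average: Act5C, alphaTub84B and Rho1 were covered most in the higher 25%, to 86.9%, 100% and 100%, and the lower 25% of Act5C and alphaTub84B was at 0%. In Act42A, betaTub56D, chic, tsr, sqh and zip the lower 25% was fully covered.

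The 15 peaks that touch the 10 genes were 200 to 20400 bp wide, with a median of 1800 bp against 1100 bp for the whole list. The whole list was not limited to peaks that touch a gene, and a wide peak meets a gene more often. Of the 15 peaks, 7 lay completely inside their gene and 6 also overlapped another protein-coding gene. The same shares over all peaks are not given here, so these counts only describe the 15. When the midpoint of a peak had to lie in the gene, 7 of the 10 genes kept a peak, against 27.9% of all protein-coding genes, and Act42A, betaTub56D and tsr did not. All 10 had at least 10% of the body covered, against 32.0% of protein-coding genes, and all 10 met a peak from the wider 50% of peaks, against 28.4%. These shares of all protein-coding genes are not matched for length.

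The 10 kb flanks held another 23 peaks. Averaged over both sides, flank cover had a median of 40.5% over the 10 genes, against 26.3% over protein-coding genes with a peak and 11.3% over all protein-coding genes. These shares include the parts of a gene's own peaks that run past its ends. Without peaks that touch the gene, the median over the 10 genes was 29.2%, and the shares for other genes were not recomputed in this way. With all peaks counted, flank cover ranged from 5.0% at Moe to 74.1% at betaTub56D. At 6 of the 10 genes the sides differed by at least 30 points, as at 43.5% of protein-coding genes with a peak. The largest gap was at Act42A, with 100% of the lower and 11% of the higher flank covered, followed by tsr, with 74.0% and 3.0%, and Rho1, with 89.1% and 19.2%. The lower flank of Act42A lay wholly in the 20400 bp peak that also covers the gene.

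Most neighbours of the 10 genes had a peak too. Within 10 kb there were 50 pairs of a cytoskeletal gene and another protein-coding gene, and in 35 of them (70%) the neighbour had a peak, against 38.3% of all protein-coding genes. In the other 15 it had none. Src42A, RpL11, Arl6, EloC, Ucp4B, IntS1, CG3829 and Ric overlap a peak that also touches the cytoskeletal gene beside them. For these the count is partly the same observation made again. The 38.3% holds for all genes and not for neighbours of genes with a peak, whose share is not given here. Next to sqh, Efr at a distance of 341 bp was free of peaks, whereas dtn on the other side, 506 bp away, was covered to 49.7%. Beside Act5C, CG4020 at 346 bp had no peak. At chic the translation factor gene eIF4A, 745 bp away, was covered to 65.1% and the demethylase gene Kdm5 to 89.1%, while psd, CG13992 and Ucp4C on the opposite side had none. The nearest neighbours of alphaTub84B were Tailor, covered to 93.6%, and e(y)2b, without a peak. Those of Act42A were Src42A, covered to 82.9%, and Pngl, to 37.2%. Next to betaTub56D, EloC was covered to 100% and CG7744 to 97.5%, and next to zip CG3829 to 39.1% and uzip to 22.1%. Rho1 lay between CG8414, covered to 69.5%, and Ric, to 66.4%, and tsr next to gammaSnap1, covered to 17.1%.

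Among 89 other genes of the cytoskeleton in 8 lists, 66 (74.2%) had a peak, against 38.3% of all protein-coding genes. This 38.3% is not matched for length. List by list, the share in genes of the same length deciles ran from 40.3% to 53.0%. The median covered share of the 89 was 43.2%, against 0% over all protein-coding genes, again without matching for length. The bodies of 40 of the 89 share bases with a second coding gene, and some peaks counted there may belong to that gene. All 10 genes of actin turnover and monomer binding had one. Twinfilin (twf), which overlaps the gene 140up, and the cofilin phosphatase gene ssh, which overlaps no protein-coding gene, were covered completely. In genes of the same length deciles, 49.6% had a peak. This list holds the partners of chic and tsr.

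Of the crosslinkers and membrane linkers, 15 of 16 had a peak, against 53.0% of genes of the same length deciles. These genes are long, with a median of 18449 bp, and the count includes f, covered to 0.312%. Among the most covered, the spectrin genes alpha-Spec and beta-Spec, which overlap dlt and CG12990, were covered to 100% and 97.3%. The exception was the tropomyosin gene Tm2. Merlin (Mer), a relative of Moesin named after its value was seen, was covered to only 3.94%. Among nucleators and elongators, 18 of 22 had a peak, against 46.2% of genes of the same length deciles, with covered shares down to 0.665% in the formin gene Fhos. The Arp2/3 complex genes Arp3 and Arpc2 were covered to 100%, as was Arpc5, which overlaps Drp1. The longest gene of this list without a peak was spir, at 37168 bp.

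Microtubule-associated and motor genes had a peak in 16 of 19 cases, against 52.4% of genes of the same length deciles, with a median covered share of 75.2%, above that of the 10 genes themselves. The kinesin heavy chain gene Khc was covered to 100% and the stathmin gene stai to 92.1%, whereas the longest gene without a peak was the neuronal futsch. Many of these genes, 15 of 19, overlap another protein-coding gene, so a peak there cannot always be given to 1 gene. For myosin II, 4 of 6 further genes (66.7%) had a peak, against 49.2% of genes of the same length deciles. The essential light chain gene Mlc-c, whose product binds zip, was covered to 91.1% and the myosin phosphatase gene Mbs to 41.6%, and the myosin light chain kinase gene Strn-Mlck, at 42566 bp, had none.

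**Figure D4:**
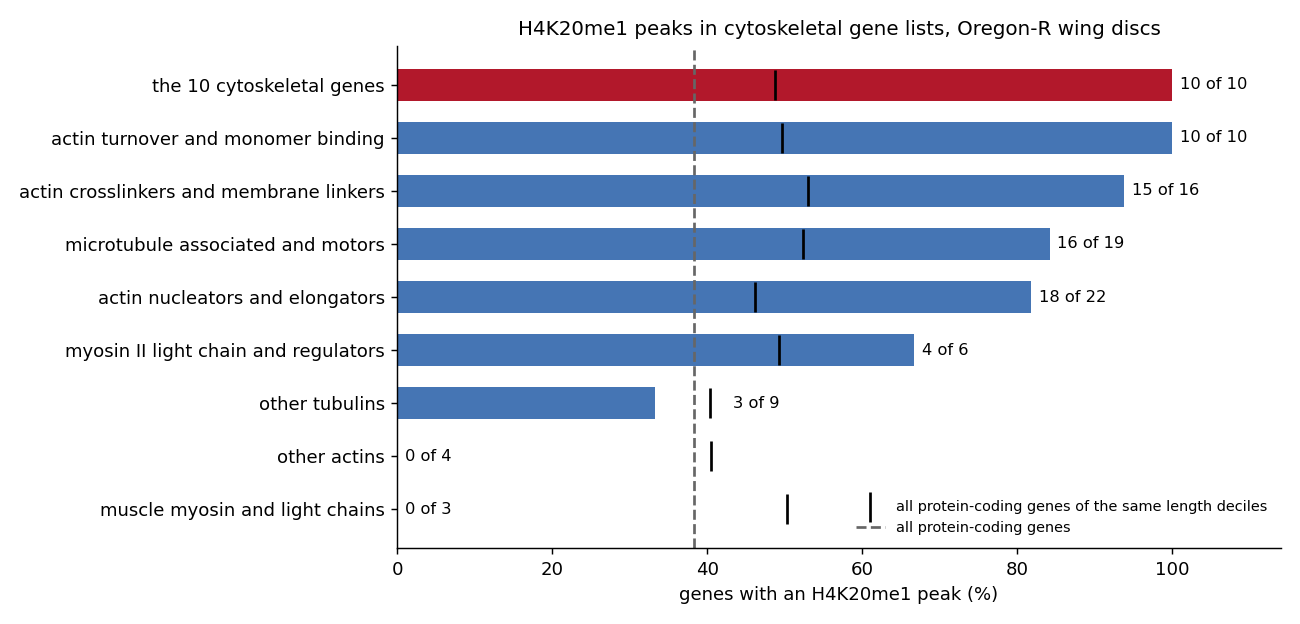
Percentage of genes with an H4K20me1 peak in the 10 cytoskeletal genes (red) and in 8 lists of other cytoskeletal genes (blue), with counts beside the bars; black ticks give the mean for protein-coding genes of the same length deciles and the dashed line 38.3% for all. The list of actin turnover genes reaches 100%, and muscle actin and myosin genes stand at 0.

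By shape, measured as the mean absolute difference in cover over 20 body bins and 20 flank bins, the gene most like Act42A was SmydA-7 (4.53 points), and the one most like Moe was CG43980 (4.59 points). For sqh it was ND-49 (5.26 points), for tsr mge (6.5 points) and for Rho1 rad50 (9.91 points). The profiles of alphaTub84B, betaTub56D, chic, Act5C and zip were closest to CG14227, kra, fax, fmt and CG42232, at 13, 14.1, 15, 17.7 and 20.4 points. Among the 10 themselves the closest pair was sqh and Moe, at 15.8 points. These values rest on 1 peak list. Genes outside the 10 were compared if their length was 0.5 to 2 times that of the gene in question, whereas pairs among the 10 were compared whatever their length.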

How the data were processed

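The values come from 1 peak list deposited by the authors for Oregon-R wing discs, antibody against no primary antibody, with chromosome, start, end and width in bp as its columns. The width of every peak equals end minus start plus 1, and all boundaries lie on a 50 bp grid, so positions count from 1. Per the submitters' processing notes the genome build was dm6 and the tools included deepTools, edgeR, Bowtie2, bedtools and SAMtools, with no role given to any. The sources used here do not state how peaks were called, at which threshold or on which pooling of libraries, and depth is unknown for each library.

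Gene positions came from the NCBI RefSeq table of the same assembly (Release 6), which holds no strand, exons or sequence. Covered bp were computed in Python 3.11.15 with pandas 2.3.3, after a check of the interval arithmetic on simulated peaks. A gene had a peak at an overlap of at least 1 bp. Of 100 listed names, 94 matched a symbol, 5 a synonym (Rok, Cyfip, Slik, Tbcb, Tbcd) and 1 none.

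The 10 genes and the lists were chosen with earlier results of these data known. Named genes are the 10, all other actin, tubulin and muscle myosin genes, the 2 most covered genes and the longest without a peak in each other list, the nearest neighbours or genes sharing a peak, and the gene of most similar profile. Further genes in the lists and neighbourhoods were named after their values were seen.

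Another gene list is not reported here. No test was run, since the list gives no value per library and the lists were not tested for enrichment. Nothing in the labels says if replicate libraries were made from different larvae or on different days.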

Additional observations from a re-analysis of the deposited data

How the results depend on the processing

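No paired analysis was possible because the peak list holds no value per library, and for the same reason no replicate could be left out. Counting only genes with at least 50% of the body covered, the 8 other lists held 41 genes of 89 in place of 66. Of all protein-coding genes, not matched for length, 18.3% reached this. The 41 included 15 of 19 microtubule-associated and motor genes and 7 of 10 genes of actin turnover and monomer binding. The rest were 1 of 9 other tubulins, 1 of 6 myosin II regulators, 10 of 22 nucleators and elongators and 7 of 16 crosslinkers and linkers. By the midpoint of the peak, 1 of 9 other tubulins kept a peak. Filling gaps of up to 2 kb between peaks raised the median covered share of the 10 genes to 81.2%, which follows from the filling, and leaving out peaks that reach into a gene lowered the median cover of its 10 kb flanks to 29.2%. The count of the 10 genes with a peak lay between 7 and 10 under every overlap rule and peak width tried. All these rules are stricter than an overlap of 1 bp, so counts could only stay or fall. The 0 of the muscle actin and myosin genes could therefore not change. Filled gaps moved the covered share of 6 of the 10 genes, 500 bp trimmed from each end moved 3 and the wider 50% of the peaks moved 2, beyond a 95% Wilson interval over 50 bp steps. Such steps are not independent, and unknown depth limits every share given here.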
